A study of Homo sapiens with 4 samples.

Results

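The NF-kappaB pathway and its inflammatory cytokines were described across 40 listed genes, of which 38 were represented on the array by a transcript cluster (probes summarised together for 1 locus) that the platform annotation ties to a single gene symbol. BIRC3 and CSF2 were not analysed here because no single-symbol cluster carried their names. Each gene was read from its brightest such cluster, and the 38 genes stand among 18418 genes so represented. The list is made of genes known for their role in the pathway, and it was chosen with earlier results of these data known. Expression was measured in AGS, an established human gastric carcinoma line, on Affymetrix Human Gene 1.0 ST arrays. One group of 2 biological replicates received 0.01% ornithogalum, which the labels describe as a homeopathy formulation, and the other group of 2 received ethanol as vehicle. Both treatments lasted 36 h, and both were begun at high confluency in medium with serum. The labels call the replicates biological but name no separate cultures or days, and every p-value rests on the spread between these arrays, which may be technical. With 2 arrays against 2 an exact permutation test cannot go below p = 0.333, so the tests below come from limma's model across all clusters.

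NF-kappaB is a family of dimeric transcription factors built from RELA, RELB, REL and the processed products of NFKB1 and NFKB2. In resting cells IkappaB proteins hold the dimers in the cytoplasm. Receptors for TNF, interleukin-1 and bacterial products act through adaptors and ubiquitin chains on the IkappaB kinases, which mark IkappaB for degradation and free the dimers. Target genes include chemokines, cytokines and the pathway's own brakes, such as NFKBIA and TNFAIP3. In gastric epithelium the pathway is best known for the chemokine response to Helicobacter pylori.

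To show the DNA that these genes carry at their start sites, 4 promoters are printed from RefSeq (GRCh38.p14), each as the 250 bases before the annotated start, with matches to the kappaB consensus on either strand in capitals. The consensus was taken strictly as GGGRNNYYCC, where R is A or G, Y is C or T and N is any base. Near matches were not counted. REL and PTGS2 are shown because their transcripts rose, 1 with a match and 1 without, and CXCL1 and NFKBIA because they hold a match and were not called.
REL, chr2:60881324-60881573, plus strand: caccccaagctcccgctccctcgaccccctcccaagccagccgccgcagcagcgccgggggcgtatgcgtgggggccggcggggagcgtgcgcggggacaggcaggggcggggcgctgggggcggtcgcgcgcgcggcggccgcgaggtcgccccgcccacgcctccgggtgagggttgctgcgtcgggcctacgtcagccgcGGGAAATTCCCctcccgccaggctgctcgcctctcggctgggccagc
PTGS2, chr1:186680424-186680673, minus strand: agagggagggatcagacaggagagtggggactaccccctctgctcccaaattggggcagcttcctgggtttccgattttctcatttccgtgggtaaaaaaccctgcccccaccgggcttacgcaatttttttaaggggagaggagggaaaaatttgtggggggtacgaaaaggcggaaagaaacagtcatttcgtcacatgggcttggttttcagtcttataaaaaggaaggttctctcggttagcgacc
CXCL1, chr4:73869143-73869392, plus strand: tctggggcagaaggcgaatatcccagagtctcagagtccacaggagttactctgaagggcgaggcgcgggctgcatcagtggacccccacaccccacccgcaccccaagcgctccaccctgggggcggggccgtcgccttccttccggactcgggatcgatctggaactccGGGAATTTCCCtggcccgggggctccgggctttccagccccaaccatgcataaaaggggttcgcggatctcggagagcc
NFKBIA, chr14:35404750-35404999, minus strand: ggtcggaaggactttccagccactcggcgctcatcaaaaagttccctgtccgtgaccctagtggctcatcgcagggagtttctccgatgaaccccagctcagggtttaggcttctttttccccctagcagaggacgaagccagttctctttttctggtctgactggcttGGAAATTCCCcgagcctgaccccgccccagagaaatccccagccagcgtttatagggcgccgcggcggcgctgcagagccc
Promoter rows of 300 bases, reaching 50 bases past the start, were found for 33 of the 40 genes. A kappaB match lay in 18 of these genes and in 20 of their 46 promoters (43.5%), against 11.3% of all 35116 promoters. Many of the listed genes are known as kappaB targets, so the higher share is a property of the list. Of 9 called members with a promoter, 4 held a match (NFKB2, NFKBIB, REL and BCL3), as did 13 of 22 members that were not called. The AP-1 motif TGANTCA, searched on both strands for comparison, lay in 6 of the 46 promoters of members and 7.71% of all promoters, and overlapped a kappaB match in 0 cases. CXCL1, CXCL2 and CXCL3 held the same 10 bases, GGGAATTTCC, starting 79, 78 and 79 bases before their start sites. A match is a description of the letters in this window and not of binding.

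Of the 38 genes, 10 were called, among them 3 of 5 NF-kappaB subunits and 0 of 6 chemokines. All 6 chemokines but 0 of the 5 subunits lay below the median level of clusters, so these roles are not like for like. Limma called 7 members higher in ornithogalum-treated cells (NFKB2, REL, RELA, NFKBIB, BIRC2, LIF and PTGS2) and 3 lower (BCL3, IKBKE and TNFAIP2) at an adjusted p under 0.05 over all clusters. That is 18.4% higher and 7.89% lower, where 6.57% and 12.6% of all 21214 clusters tested were called higher and lower. Either direction was called in 26.3% of members and 19.2% of clusters. These shares are not matched for level, as only 13 of the 38 members lay below the median level of clusters. Among the brighter clusters tested alone, 45.6% were called. An unadjusted p under 0.05 was reached by 15 members, and by 33.8% of clusters. The median log2 difference (ornithogalum minus vehicle, here and below) was 0.21 over the members and 0.04 over all clusters. The groups did not overlap in 18 members that lay higher and 8 that lay lower (47.4% and 21.1%), against 32% and 30.2% of clusters, or 62.2% in either direction. The other 12 members overlapped.

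All calls named in this report rest on both vehicle arrays. Without vehicle replicate 1 or 2 limma called 0 of 38 members, with 8 and 7 at an unadjusted p under 0.05 against 15 on the full set. It then called 0 of all 21214 clusters, of which 4192 and 3986 had an unadjusted p under 0.05. Without ornithogalum replicate 1 it called 5 members higher and 3 lower, and without ornithogalum replicate 2 it called 10 and 3, where 20.4% and 33.3% of clusters were called. The within-group SD over clusters was 0.26 for ornithogalum and 0.14 for vehicle. Relative to the vehicle mean, 25 of 38 members were above on ornithogalum replicate 1 and 24 on replicate 2. The members' medians were 0.13 and 0.23, against -0.0019 and 0.043 over all clusters. By group means 25 members had a positive difference, as did 54.0% of all clusters. Both arrays are set against the same vehicle mean, so these counts are not independent. Centring each array on its median moved the median difference of all clusters from 0.04 to 0.20, and turned the split of all calls from 1393 higher and 2683 lower to 2238 higher and 1898 lower. For the members it gave 10 higher and 1 lower (19.5% of clusters called). Quantile scaling gave 10 and 2 (19.3%), cyclic loess 9 and 3 (20.6%), an intensity trend with a robust prior 9 and 3 (24.1%), and the mean of a gene's clusters 7 and 3 (19.8%). Among the brighter clusters only, 10 and 3 of 25 members were called (45.6%). With all clusters of the table tested 3 members were called higher and 0 lower (7.94%). A block for the replicate number left 4 and 1 (15.6%).

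**Figure D1:**
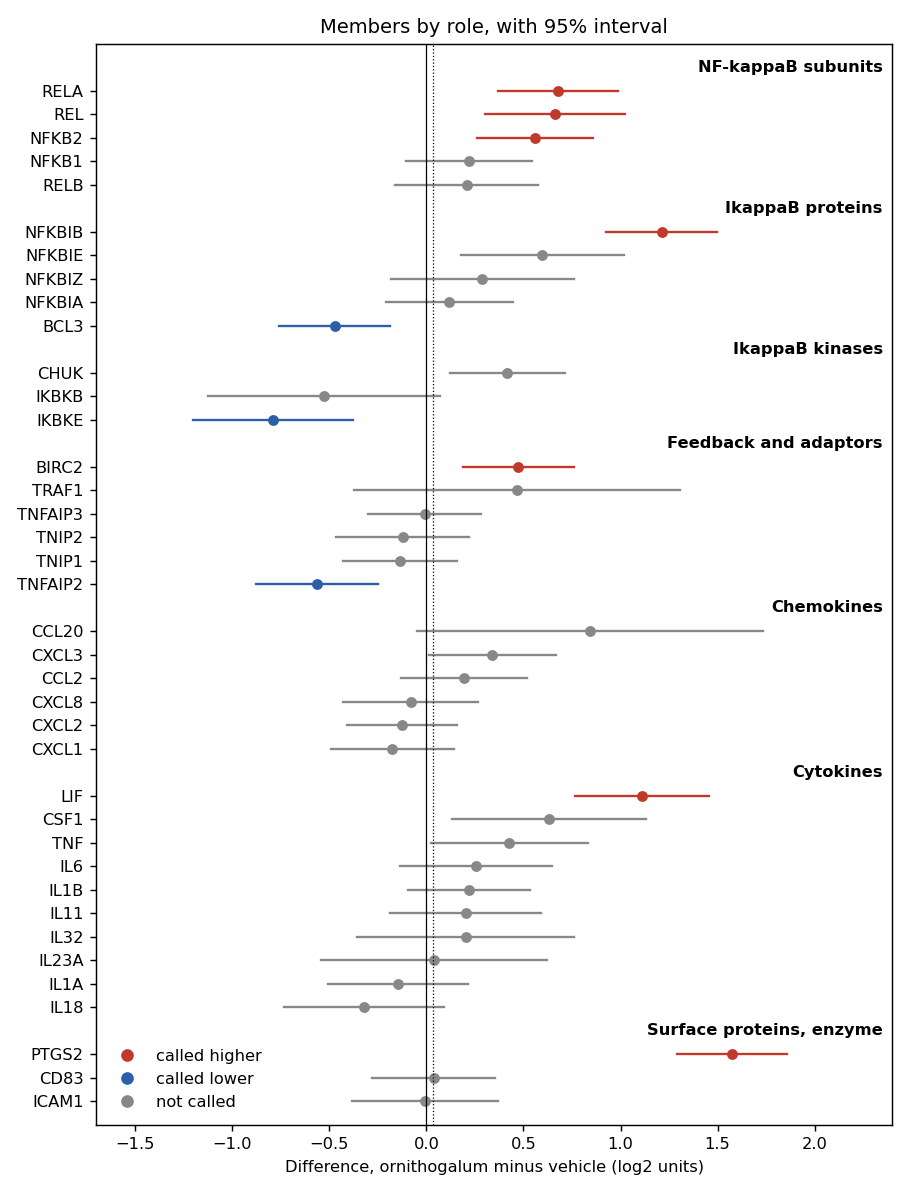
Log2 difference (ornithogalum minus vehicle) of 38 members, grouped by role, with limma's 95% interval from 2 arrays per group. Red points were called higher, blue points lower and grey points not called, the solid line is 0 and the dotted line is the median of all clusters, 0.04. The 5 subunits all lie right of 0, and PTGS2 has the largest difference, 1.58.

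Among the 5 subunits, RELA, REL and NFKB2 rose and NFKB1 and RELB did not pass the test. RELA, which encodes the p65 subunit that carries a strong transactivation domain, read 6.50 and 6.49 with ornithogalum and 5.73 and 5.90 with vehicle (log2 values). It rose 1.60-fold (log2 difference 0.68, SE 0.12, limma adjusted p = 0.021), from 5.82 ± 0.12 to 6.49 ± 0.013 (SD, n = 2 per group). REL, which encodes c-Rel, best known in lymphocytes, read 7.02 and 6.93 against 6.18 and 6.45. The difference was 0.66 (SE 0.14, 1.58-fold, limma adjusted p = 0.034), and was 0.62 with an adjusted p of 0.062 without ornithogalum replicate 1. NFKB2, whose p100 product is both an inhibitor and the precursor of p52 in the alternative pathway, read 5.91 and 5.99 against 5.44 and 5.35. It rose 1.47-fold (0.56, SE 0.12, limma adjusted p = 0.032). In each of these 3 genes both ornithogalum arrays lay above both vehicle arrays, as in 32% of all clusters.

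NFKB1, which encodes p105 and its product p50, read 5.51 and 5.70 against 5.35 and 5.42. RELB, the partner of p52, had a similar difference, 0.21 against 0.22 for NFKB1, with 95% intervals from -0.16 to 0.58 and from -0.10 to 0.54. Their groups did not overlap, but both intervals include 0. The 5 subunit differences had a median of 0.56, which ran from 0.51 to 0.72 over the 12 alternatives. When all 33297 clusters of the table, named or not, were tested together, limma's adjusted p was 0.056 for RELA, 0.082 for REL and 0.077 for NFKB2.

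**Figure D2:**
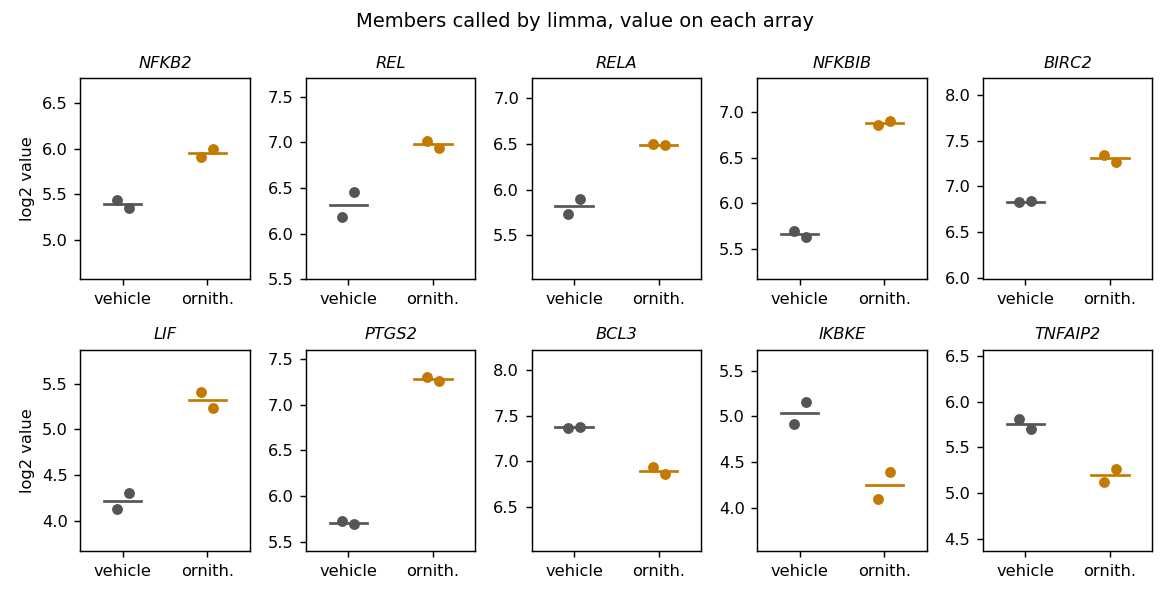
Log2 value of the 10 called members on each array, with the group mean as a bar and the same vertical span in every panel (ornith. is ornithogalum). The genes were picked by limma's call on these same values, so the gap between the groups is not a separate result. Groups also did not overlap in 62.2% of all clusters. The gap is widest in PTGS2, NFKBIB and LIF.

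The inhibitors split. NFKBIB, which encodes IkappaB-beta, read 6.86 and 6.90 against 5.70 and 5.64. It rose 2.32-fold (log2 difference 1.21, SE 0.11, limma adjusted p = 0.0045), from 5.67 ± 0.043 to 6.88 ± 0.032 (SD, n = 2 per group), and the arrays within each group lay close together. NFKBIA, which encodes IkappaB-alpha and is among the quickest targets of the pathway, read 7.19 and 7.35 against 7.22 and 7.09. Its groups overlapped, and its difference of 0.12 had a 95% interval from -0.21 to 0.44. NFKBIE, which encodes IkappaB-epsilon, read 5.73 and 5.45 against 5.13 and 4.85. The groups did not overlap and the difference was 0.60 (1.51-fold), with a limma adjusted p of 0.065. Without ornithogalum replicate 1 it was 0.46 (adjusted p = 0.118), and without replicate 2 it was 0.74 (adjusted p = 0.032).

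The nuclear IkappaB proteins bind dimers at DNA and can raise or lower transcription. BCL3, one of them, read 6.94 and 6.86 against 7.37 and 7.38. It fell 1.39-fold (log2 difference -0.47, SE 0.11, limma adjusted p = 0.044), and after median centring its difference was -0.31 with an adjusted p of 0.155. NFKBIZ, the other nuclear member, had overlapping groups and a difference of 0.29 (95% interval -0.18 to 0.76).

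The 3 kinase genes did not move as a group. IKBKE, an IkappaB kinase related to TBK1 that also serves the interferon response, read 4.10 and 4.39 against 4.92 and 5.16. It fell 1.73-fold (log2 difference -0.79, SE 0.16, limma adjusted p = 0.030), and with all clusters of the table tested the adjusted p was 0.075. Both ornithogalum arrays lay below both vehicle arrays, as in 30.2% of all clusters. CHUK, which encodes the kinase IKK-alpha of the alternative pathway, had a difference of 0.42 (95% interval 0.12 to 0.71, limma adjusted p = 0.067), and its adjusted p lay between 0.033 and 0.047 under the 3 other scalings. IKBKB, which encodes IKK-beta, the main kinase for IkappaB-alpha, read 5.13 and 4.52 against 5.47 and 5.24. Its ornithogalum arrays differed from each other by more than its group means did, and its difference of -0.53 had a limma adjusted p of 0.19. Without ornithogalum replicate 1 the IKBKB difference was -0.83 (adjusted p = 0.028), and without replicate 2 it was -0.22 (adjusted p = 0.31).

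Of the 6 feedback and adaptor genes measured, 1 rose and 1 fell. BIRC2, which encodes the ubiquitin ligase cIAP1 at the TNF receptor, read 7.34 and 7.27 against 6.82 and 6.84. It rose 1.39-fold (log2 difference 0.47, SE 0.11, limma adjusted p = 0.043), with an adjusted p of 0.061 without ornithogalum replicate 1. TNFAIP2, a TNF-induced gene, read 5.12 and 5.26 against 5.81 and 5.70. It fell 1.48-fold (-0.56, SE 0.12, limma adjusted p = 0.036), and its adjusted p was 0.056 without ornithogalum replicate 1, 0.062 after quantile scaling and 0.077 after median centring. TNFAIP3, which encodes the ubiquitin-editing brake A20, read 4.62 and 4.69 against 4.63 and 4.70. These values overlapped almost fully, and the difference of -0.0085 had a 95% interval from -0.30 to 0.28. The A20 partners TNIP1 and TNIP2 had differences of -0.13 and -0.12, neither called. All 3 of these small differences turned positive after quantile scaling or median centring. TRAF1, an adaptor induced by NF-kappaB, differed by 0.47 with a wide 95% interval, from -0.371 to 1.304. Without ornithogalum replicate 1 the TRAF1 difference was 0.067, without replicate 2 it was 0.87, and without vehicle replicate 1 or 2 it was 0.18 or 0.75.

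None of the 6 chemokine genes was called by limma, and 1 (CXCL3) had an unadjusted p under 0.05. All 6 had a mean log2 value under 4.64, the median over clusters. Levels of different clusters depend on their probes, and the table holds no detection call, so how much of a low value is background was not tested. CXCL8, which encodes the neutrophil attractant interleukin-8, read 4.32 and 4.18 against 4.44 and 4.22. The groups overlapped, and the difference of -0.08 had a 95% interval from -0.43 to 0.27.

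CXCL1, CXCL2 and CXCL3 encode closely related neutrophil attractants from 1 gene cluster on chromosome 4. Whether their probes share sequence was not checked. CXCL1 and CXCL2 had differences of -0.17 and -0.13, and both 95% intervals include 0. CXCL3 had a difference of 0.34 (95% interval 0.01 to 0.67, limma adjusted p = 0.14). None of these differences was called, and how the kappaB letters shared before their start sites relate to them was not tested. The sign for CXCL2 and CXCL8 turned after median centring. CCL2, the monocyte attractant, had a difference of 0.19.

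CCL20, which attracts cells bearing CCR6 and is an epithelial target of the pathway, stood out by its spread. It read 3.93 and 2.88 against 2.59 and 2.53. Both ornithogalum arrays lay above both vehicle arrays, but replicate 1 by far more than replicate 2. The difference of 0.84 (SE 0.35, 1.79-fold) had a limma adjusted p of 0.17. Without ornithogalum replicate 2 it was 1.37 with an adjusted p of 0.0058, and without replicate 1 it was 0.32 with an adjusted p of 0.13.

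**Figure D3:**
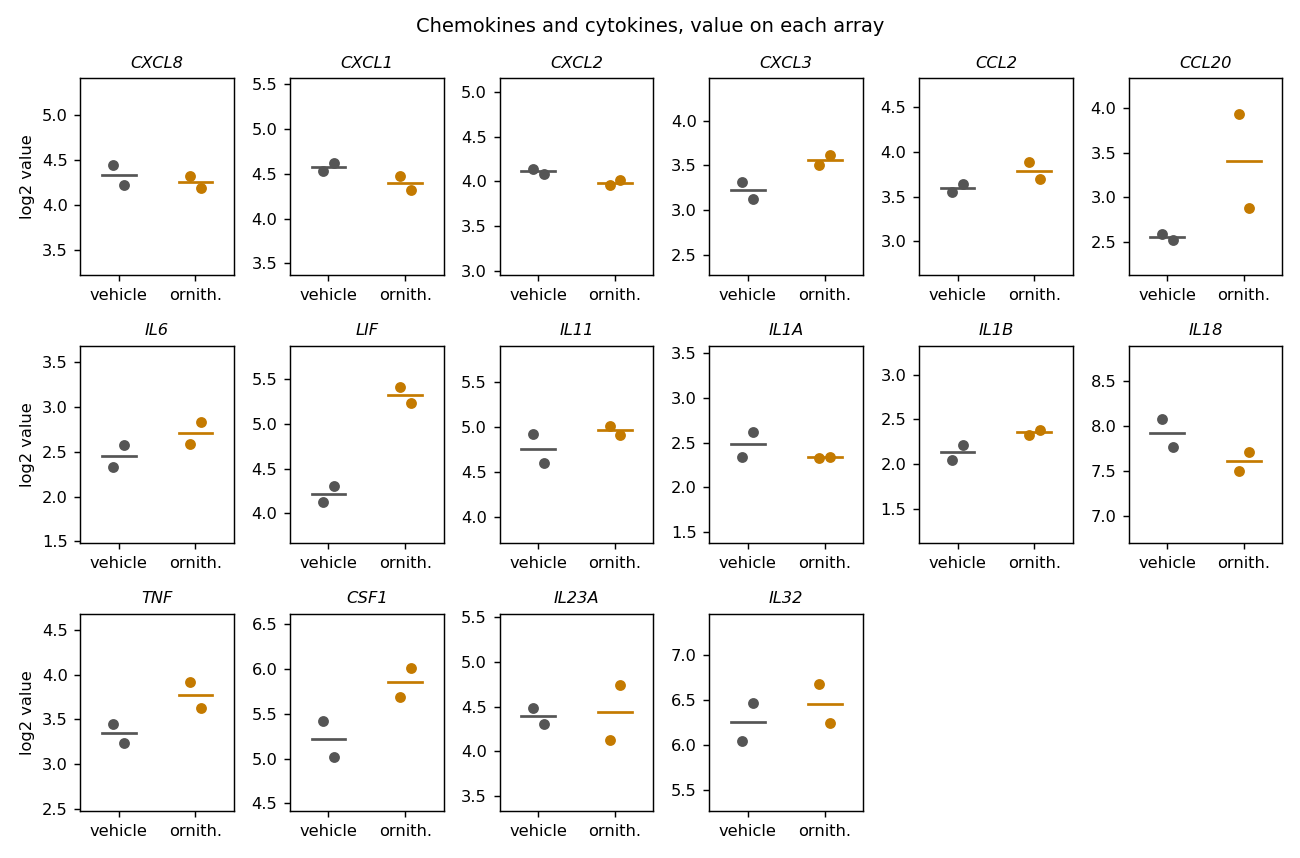
Log2 value of the 6 chemokine and 10 cytokine genes measured, on each array, with the group mean as a bar and the same vertical span in every panel (ornith. is ornithogalum). LIF is the 1 gene called, and CCL20 shows the widest gap between the ornithogalum arrays.

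Among the 10 cytokine genes measured, LIF rose and 9 were not called. Below the median level of clusters lay 5 of the 10, IL6, TNF, IL1A and IL1B among them. How much of these low values is background was not tested. LIF, a cytokine of the interleukin-6 family, read 5.41 and 5.23 against 4.12 and 4.30. It rose 2.16-fold (log2 difference 1.11, SE 0.13, limma adjusted p = 0.0077), from 4.21 ± 0.13 to 5.32 ± 0.13 (SD, n = 2 per group). It was called under all 8 alternatives that kept all 4 arrays, and without either ornithogalum array.

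IL6 itself read 2.59 and 2.83 against 2.33 and 2.57. The groups did not overlap by a narrow margin of 0.015, and the difference was 0.26 (95% interval -0.13 to 0.65). IL11, of the same family, had overlapping groups and a difference of 0.20.

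TNF, IL1B and IL1A, genes of master inflammatory cytokines, were not called. Their mean log2 values were 3.56, 2.24 and 2.41, under the median over clusters, 4.64. A missing call at such levels is not read as a lack of response. TNF read 3.92 and 3.63 against 3.45 and 3.24, a difference of 0.43 (95% interval 0.025 to 0.83, limma adjusted p = 0.13). Without ornithogalum replicate 1 the TNF difference was 0.28 (adjusted p = 0.235), and without replicate 2 it was 0.57 (adjusted p = 0.0435). Its name is carried by 3 clusters that hold the same value on each array, so they are 1 measurement. IL1B read 2.32 and 2.39 against 2.05 and 2.22. Its difference of 0.22 (95% interval -0.095 to 0.54) became -0.05 after quantile scaling and -0.01 after cyclic loess. IL1A, encoding the other interleukin-1, had a difference of -0.15 and overlapping groups.

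CSF1, which encodes the macrophage growth factor M-CSF, read 5.69 and 6.01 against 5.42 and 5.02. The groups did not overlap, and the difference of 0.63 (SE 0.20, 1.55-fold) had a limma adjusted p of 0.088, and of 0.035 to 0.039 under the 3 other scalings. IL18, an epithelial cytokine activated by caspase-1 cleavage, was the cytokine with the largest negative difference, -0.32 (95% interval -0.73 to 0.092). IL23A and IL32 had overlapping groups, with differences of 0.04 and 0.20.

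PTGS2, which encodes cyclooxygenase-2, the inducible enzyme of prostaglandin synthesis, had the largest difference of all members. It read 7.31 and 7.26 against 5.73 and 5.69, so that the groups were 1.53 apart at their nearest arrays. PTGS2 rose 2.98-fold (log2 difference 1.58, SE 0.11, limma adjusted p = 0.0034), from 5.71 ± 0.028 to 7.28 ± 0.033 (SD, n = 2 per group). Without vehicle replicate 1 or 2 the adjusted p was 0.061 each time, and in the other alternatives it was called. Its promoter window, printed above, held no match to the strict kappaB consensus or the AP-1 motif. The window does hold GGGACTACCC, which departs from the kappaB consensus only by an A where C or T is required. The cell surface genes ICAM1, an adhesion molecule, and CD83 had differences of -0.0073 and 0.04, with 95% intervals from -0.38 to 0.37 and from -0.28 to 0.35.

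The rest of the pathway was read from a further list of 101 genes, of which 95 were measured. Limma called 9 higher and 13 lower (9.47% and 13.7%, where 6.57% and 12.6% of all clusters were called), and the median difference was -0.02. After median centring 11 rose and 8 fell. Each of the 5 roles in the list held genes called in both directions.

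Among 15 receptors, 1 rose and 3 fell. TNFRSF1A, the main receptor for TNF, read 5.80 and 6.09 against 7.18 and 7.30. It fell 2.45-fold (log2 difference -1.29, SE 0.15, limma adjusted p = 0.0065). TLR3, the receptor for double-stranded RNA, read 3.37 and 3.35 against 4.79 and 4.82, and fell 2.72-fold (-1.45, SE 0.11, limma adjusted p = 0.0035). Both lay far below the vehicle arrays, as did NOD1, a sensor of bacterial cell wall, by less. TNFRSF12A, the receptor for TWEAK and an activator of the alternative pathway, rose 2.42-fold (1.27, SE 0.12, limma adjusted p = 0.0046), from 7.66 ± 0.038 to 8.94 ± 0.11 (SD, n = 2 per group).

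Of 19 adaptors and kinases measured, 1 rose and 3 fell. TRAF6, the ubiquitin ligase downstream of interleukin-1 and Toll-like receptors, rose 1.88-fold (0.91, SE 0.11, limma adjusted p = 0.0075). MYD88, the adaptor upstream of it, MAP3K8 and TRAF5 fell. Of 13 genes listed as ubiquitin-related or as other regulators, among them NFKBID and NLRC5, CYLD rose and RBCK1, RNF31 and BTRC fell. CYLD is a deubiquitinase that restrains the pathway. RBCK1 (HOIL-1) and RNF31 (HOIP) are subunits of the linear ubiquitin assembly complex. RBCK1 read 5.45 and 5.52 against 6.84 and 6.90, and fell 2.61-fold (-1.39, SE 0.11, limma adjusted p = 0.0038). RNF31 read 4.57 and 5.12 against 6.02 and 6.27, and fell 2.46-fold (-1.297, SE 0.22, limma adjusted p = 0.018). A second, dimmer RNF31 cluster had a difference of -1.21 with an adjusted p of 0.16, and the mean of both clusters had one of 0.064. SHARPIN, the third subunit of that complex, was not called, with a difference of -0.29. NOD1, TRAF5 and BTRC had adjusted p-values of 0.047 to 0.050, next to the threshold, and each lost its call under median centring and quantile scaling. MYD88 and CFB also lost theirs under median centring, and CFB under quantile scaling. With a block for the replicate number NOD1, TRAF5, BTRC, CYLD and IL6ST lost theirs. With all clusters of the table tested, these and MYD88, RNF31, CFB and OSMR lost theirs.

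**Figure D4:**
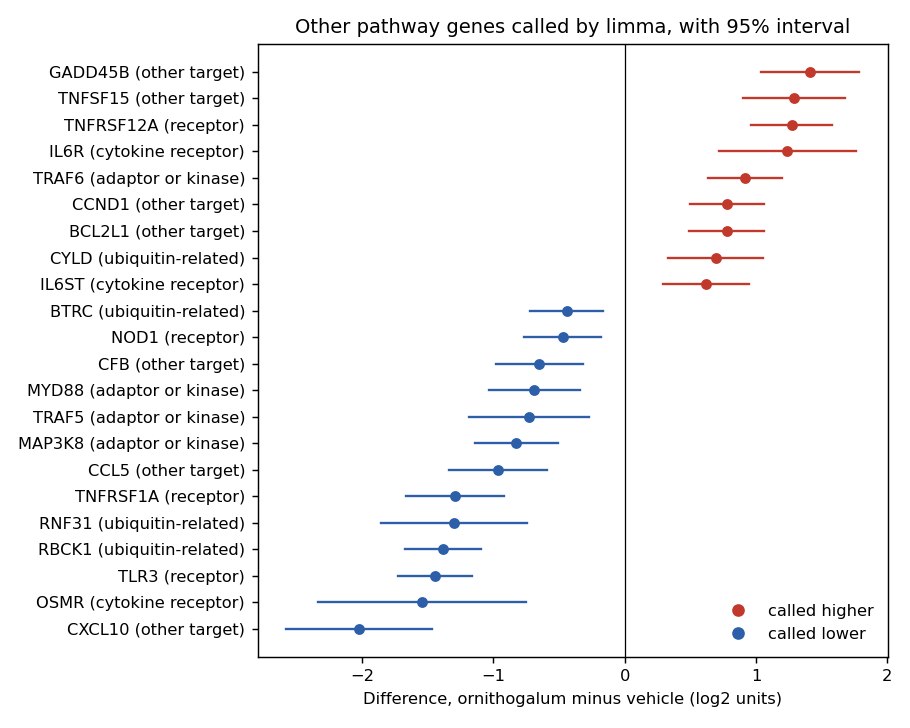
Log2 difference (ornithogalum minus vehicle) of the 22 called genes among 95 further pathway genes measured, with limma's 95% interval from 2 arrays per group and each gene's role in brackets. The 9 genes in red were called higher, up to 1.41 for GADD45B, and the 13 in blue lower, down to -2.02 for CXCL10.

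Of 33 other targets measured, 4 rose and 3 fell. GADD45B, a stress-induced regulator of MAP kinase signalling, rose 2.66-fold (1.41, SE 0.15, limma adjusted p = 0.0055), and TNFSF15, a TNF family ligand, 2.45-fold (1.29, SE 0.15, limma adjusted p = 0.0073). CCND1, the cyclin D1 gene, rose 1.72-fold, from 7.89 ± 0.018 to 8.67 ± 0.017 (SD, n = 2 per group), and BCL2L1, which opposes apoptosis, rose too. CXCL10, a chemokine that is also a classical interferon target, read 3.39 and 2.82 against 5.04 and 5.22. It fell 4.06-fold (-2.02, SE 0.22, limma adjusted p = 0.0058), the largest difference in this list. CCL5 and CFB fell as well, and 2 dimmer CFB clusters were called lower too. Whether these falls are related to interferon was not tested.

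Of 15 cytokine receptors measured, IL6R and IL6ST rose and OSMR fell. IL6R, the ligand-binding chain for interleukin-6, read 5.11 and 5.66 against 4.16 and 4.13, and rose 2.36-fold (1.24, SE 0.20, limma adjusted p = 0.017). IL6ST, the shared signalling chain gp130, was called as well, while LIFR, the receptor chain for LIF, had a difference of 0.20 with an adjusted p of 0.28 and IL11RA, that for interleukin-11, one of -0.03 with an adjusted p of 0.91. OSMR, the oncostatin M receptor chain, read 5.87 and 4.95 against 6.98 and 6.93, and fell 2.91-fold (-1.54, SE 0.31, limma adjusted p = 0.029). The ornithogalum arrays were far apart for OSMR, and both lay below both vehicle arrays, as in 30.2% of all clusters.

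Marker genes of the labelled epithelium and of other cell types were read beside these results. Levels of different clusters depend on their probes, so the lists are described across arrays and not ranked against each other. The mean log2 value of 11 epithelial markers lay between 7.51 and 7.65 on the 4 arrays. That of 14 leukocyte markers lay between 3.69 and 3.96, that of 8 fibroblast markers between 3.30 and 3.55 and that of 8 endothelial and erythroid markers between 3.33 and 3.43. Limma called 0 of these 30 markers of other cell types, of which 0 had an unadjusted p under 0.05, and it called 2 epithelial markers lower, KRT19 and CLDN7. Over all clusters 19.2% were called and 33.8% had an unadjusted p under 0.05. Below the median level lay 12 of the 14 leukocyte, 7 of the 8 fibroblast and 7 of the 8 endothelial and erythroid markers. The 0 calls are therefore not read as a result about cell types. PTPRC, which all leukocytes carry, lay between 1.44 and 1.74. LYZ was bright, at 11.70 to 11.76, and is also made by gastric epithelium. TYROBP, COL1A1 and CLDN5 also lay above the median level of clusters, 4.64, with means of 5.33, 5.44 and 4.96 over the arrays. The epithelial marker KRT7 lay below it, with a mean of 3.99.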

How the data were processed

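Total RNA of 4 AGS samples, 2 per group, was profiled on 1 array each. The deposited values are on a log2 scale. The submitters' processing notes name RMA and Affymetrix Expression Console 1.1 for them, with no further settings. No depth applies to arrays, and their number limits the precision. Of 33297 clusters, 21214 have a gene symbol in the platform annotation and were tested, without a filter on dim ones. The annotation gives 19461 of them 1 symbol and 1753 several. Symbols were updated through gene numbers in the RefSeq gene table for 19429 clusters. R 4.3.3 and its package limma 3.58.1 compared the groups (lmFit, then eBayes, two-sided, Benjamini-Hochberg over all clusters tested, threshold 0.05). Higher, lower, rose, fell and called refer to that threshold. A fold change is the log2 difference put back on the linear scale. The code was tested on simulated data. The members, the further pathway list and the markers were chosen with earlier results of these data known. Values on each array are given for called members, for members not called whose groups do not overlap and differ by at least 1.5-fold, and for 8 well-known members. Of the further pathway list all called genes are named, with values for at most 6 in each direction. The array values of IKBKB, and KRT19, CLDN7, PTPRC, LYZ, TYROBP, COL1A1, CLDN5, KRT7, LIFR, IL11RA and SHARPIN, were chosen after their values were seen. Promoters came from a RefSeq table. Alternatives were a block for the replicate number, each array left out in turn, 3 other scalings, a filter on dim clusters, an intensity trend with a robust prior, all clusters, and the mean of a gene's clusters.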

Additional observations from a re-analysis of the deposited data

How the results depend on the processing

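The 12 alternatives changed how many genes passed more than which way they moved. With the replicate number as a block, 4 members were called higher and 1 lower, and 3302 clusters in all. The labels give 2 groups and no batch, so the numbers were not taken as pairs. Deviations of same-numbered arrays had r = -0.059 over clusters. With 2 arrays per group this cannot show that the arrays were unpaired. With all clusters of the table tested, 2644 were called, with 3 members higher (NFKBIB, LIF and PTGS2) and 0 lower (13 of 38 members and 8583 of 33297 clusters at an unadjusted p under 0.05), and 6 other pathway genes lower. Median centring gave 1 member lower, 8 other pathway genes lower and a median difference of 0.37 over the members. Leaving out 1 array at a time, limma called 0 to 7058 clusters, 0 to 10 members higher, 0 to 3 lower, and 0 to 15 and 0 to 20 other pathway genes higher and lower, and the members' median ran from 0.13 to 0.23. Signs turned in members with small differences. After quantile scaling TNFAIP3 became 0.10, TNIP1 0.022, TNIP2 0.0032, IL1B -0.046 and ICAM1 0.064. After median centring TNFAIP3 became 0.15, TNIP1 0.025, TNIP2 0.038, CXCL8 0.080, CXCL2 0.034, IL1A 0.014 and ICAM1 0.15. After cyclic loess TNFAIP3 became 0.067, IL1B -0.012 and ICAM1 0.042. Leaving out arrays gave TNFAIP3 -0.048 to 0.031, CXCL8 -0.19 to 0.030, IL23A -0.27 to 0.345, IL32 -0.015 to 0.42, ICAM1 -0.16 to 0.15 and CD83 -0.039 to 0.11. The cause of these changes was not tested. No called gene changed sign in any alternative. Other counts of members and pathway genes stayed within 1.5 times those of the report.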
